A study of Saccharomyces cerevisiae with 54 samples.

Results

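Enriched mRNA was compared with total RNA, gene by gene, in budding yeast from 0 h in sporulation medium to the spore. The comparison used 16 of the 54 libraries of the series, 1 mRNA and 1 total RNA library at each of 8 states, namely the hours 0, 1.5, 3, 4.5, 6, 8 and 10 and the spore. Genes were taken if their mRNA value was at least 20 RPKM (reads scaled to gene length and library size) in all 8 states, which held for 5212 of 6679 genes. Of these, 16 had a total RNA value of 0 in at least 1 state, so 5196 genes were tested. A further 550 genes had a mean of 20 RPKM or more but fell below it in some state and were not taken. Just outside the line were TEP1 at 0 h and STB5 at 6 h, both with a lowest value of 19.993 RPKM, and just inside it was YGR025W with 20.025 RPKM at 8 h.

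All 16 libraries come from yeast of the SK1 background, a strain that sporulates fast and in near synchrony. Per the labels, the cells of all 8 states were meiotic cells in sporulation medium, and no allele or drug is named for them. RNA was taken from flash-frozen cells with hot acid phenol. The labels do not state how mRNA was enriched or whether the states come from 1 culture, and they give the molecule subtype mRNA for both assays. The study set mRNA, ribosome footprints and protein levels side by side through meiosis. Footprint libraries of the same states and 5 further mRNA libraries at 1.5, 3 and 6 h, made in parallel, were used here as other readouts.

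Most nuclear mRNAs carry a poly(A) tail, which is bound by the poly(A)-binding protein, shortened by deadenylases and regrown in the cytoplasm in some germ cells of animals. A library made from enriched mRNA counts a transcript in proportion to how well the enrichment keeps it, while a total RNA library counts it with or without a tail. The ratio of both can therefore carry intactness and the handling of the samples alongside each other. It carries tail length too only if the enrichment selects tails, which the labels do not state. Transcripts of the yeast mitochondrial genome are not polyadenylated in the way nuclear transcripts are.

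The states mostly carried the markers of their stages, with a partial return of IME1 at 10 h. IME1, the inducer of meiosis, was highest at 0 h by total RNA (1936.5 RPM, recovered reads scaled to library size) and lowest in the spore (230). In between it went from 276 RPM at 8 h up to 635 at 10 h. Of 2 other early genes, SPO11 went from 42.4 to 49.6 RPM between these states and IME2 from 1151 to 981. NDT80, the activator of the middle genes, went from 9.86 RPM at 1.5 h to 1411 at 4.5 h. The middle gene SPS4 reached 39935 at 8 h and the late spore wall gene SPS100 815 in the spore. Counts recovered from the values ranged from 8.70 to 24.7 M reads in the mRNA libraries and from 1.63 to 4.50 M reads in the total RNA libraries. A median gene had 211 total RNA reads per state, and 5% of values rested on fewer than 24. Before centring, the median ratio at 0 h lay 1.45 above the mean of the states on the log2 scale, and the other states lay between -0.34 and -0.06, so the 0 h mRNA library stands on another scale. Each state was therefore centred on its median gene, and only changes between states within a gene are described.

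No gene moved its ratio steadily enough through the 8 states to pass. With limma, a line fitted to log2 ratio against the order of the states gave 0 genes rising (0%) and 0 falling (0%) of 5196 at a Benjamini-Hochberg adjusted p under 0.05, and the smallest adjusted p was 0.185. At an unadjusted p under 0.05 there were 282 rising genes (5.43%) and 207 falling genes (3.98%). The test compares the slope with the scatter of single libraries about a line, with no replicate of any state. The scatter about the line was 0.247 (SD, log2) for the median gene, against 0.108 from counting error at the median depth. In bulk cultures such as these, fewer cells at a stage and less RNA per cell cannot be told apart. Leaving out 3 h gave 1 rising gene, putting parallel mRNA libraries at 1.5, 3 and 6 h gave 1 rising gene, and leaving out the centring gave 7 falling genes.

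The steps between neighbouring states tell the same of single genes. Of the 7 steps, only 2 genes had all in the direction of their slope, and 142 had 6. The rising one was RPL17B, a protein of the large ribosomal subunit. Its relative log2 ratio (centred on each state's median gene and on the gene's own mean) was -0.35, -0.27, -0.25, 0.06, 0.14, 0.15, 0.21 and 0.31 from 0 h to spore. Its slope was 0.10 per state (SE 0.03, adjusted p = 0.35 with limma). The falling one was CSR2, an arrestin-related adaptor protein, with 0.49, 0.30, 0.09, 0.06, -0.01, -0.26, -0.32 and -0.35. Its slope was -0.12 per state (SE 0.03, adjusted p = 0.35 with limma). Both are drawn out over the whole course, with no state out of order, but neither is called over the 8 states. In the fit of 0 to 8 h alone, described below, CSR2 fell (slope -0.13, adjusted p = 0.038 with limma). With a smooth curve on gene length removed, its slope there was -0.01 (adjusted p = 0.90 with limma). RPL17B had 0.12 in that window (adjusted p = 0.12 with limma), and 0.04 with the parallel mRNA libraries (adjusted p = 0.82).

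Among the 10 genes with a standard symbol and the smallest p over the 8 states, chosen after their values were seen, 3 encode proteins of the large ribosomal subunit. RPL11B had relative ratios of -0.55, -0.65, -0.28, -0.08, 0.24, 0.32, 0.40 and 0.61. RPP0, the stalk protein P0, had -0.86, -0.56, -0.10, 0.17, 0.13, 0.39, 0.36 and 0.47. Both were low in the first states and highest in the spore, with slopes of 0.18 (SE 0.03, adjusted p = 0.23 with limma). The third was RPL6B, with a slope of 0.15. MSW1, the mitochondrial tryptophanyl-tRNA synthetase, MSS2, a mitochondrial protein needed for cytochrome oxidase subunit 2, UAF30, a subunit of the RNA polymerase I activator UAF, TRI1 and IRC4 also had positive slopes, from 0.14 to 0.18. ROF1 and UNG1, the uracil-DNA glycosylase, had negative slopes of -0.16 and -0.15. UNG1, IRC4, MSS2, UAF30, TRI1 and MSW1 had as few as 6, 8, 13, 13, 14 and 21 total RNA reads in their lowest state. Their ratios are therefore loose. RPL6B, RPL11B and ROF1 had 29, 34 and 38 reads in theirs, and RPP0 had 412.

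The fixed genes of the tail machinery had no slope past the test over the 8 states. PAB1, the poly(A)-binding protein, had a slope of -0.05 (adjusted p = 0.77 with limma), and PAP1, the nuclear poly(A) polymerase, 0.02 (adjusted p = 0.84). CCR4, the main cytoplasmic deadenylase, had -0.13 (adjusted p = 0.60). RPL3, HTB1 (histone H2B), NDT80 and IME1 had slopes of 0.03, 0.06, -0.10 and -0.07. PAB1 did not follow a line. Its relative ratio was 0.28, 0.76, -0.11, -0.27, -0.61 and -0.59 from 0 to 8 h, then 0.46 at 10 h and 0.09 in the spore.

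Many genes turned back at 10 h in this way, so the 6 states from 0 to 8 h were fitted alone, a choice made after the turn was seen. The ratio rose in 155 genes (2.98%) and fell in 524 (10.1%) of 5196 (limma, adjusted p under 0.05). Because the window was chosen on the same values, these p-values are smaller than a window set beforehand would give. Of the 524 falling genes, 515 were higher again at 10 h than at 8 h, by a median of 0.63, and of the 155 rising genes 136 were lower, by a median of 0.41. Among all genes tested, 2341 of 5196 were lower at 10 h than at 8 h. Differences of 2-fold or more between single libraries, with no test, were seen at 8 h against 0 h in 150 genes higher (2.89%) and 304 lower (5.85%), and at 10 h against 8 h in 133 higher (2.56%) and 56 lower (1.08%). The decay list had 8 genes of 52 that were 2-fold lower at 8 h than at 0 h and 6 that were 2-fold higher at 10 h than at 8 h. Since the genes were called on a window that ends at 8 h, the 8 h library enters both the call and this difference, and a move back is in part built into the choice. In the spore, 492 of the 524 falling genes were above their 8 h value (median difference 0.51) and 127 of the 155 rising genes below it (-0.28). The 8 h library enters these counts in the same way, and the share over all genes was not computed.

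These calls depend on a few libraries. With the parallel mRNA libraries at 1.5, 3 and 6 h in place of those of the course, 0 genes rose and 1 fell, although all 155 and 524 genes kept the sign of their slope with 3 of the 6 mRNA libraries and all total RNA libraries shared. The median slope went from 0.22 to 0.18 per state in the rising genes and from -0.20 to -0.16 in the falling genes. Without 6 h, 34 genes rose and 204 fell, the lowest counts when 1 state was left out. Under quantile normalization the counts were 44 and 96.

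**Figure D1:**
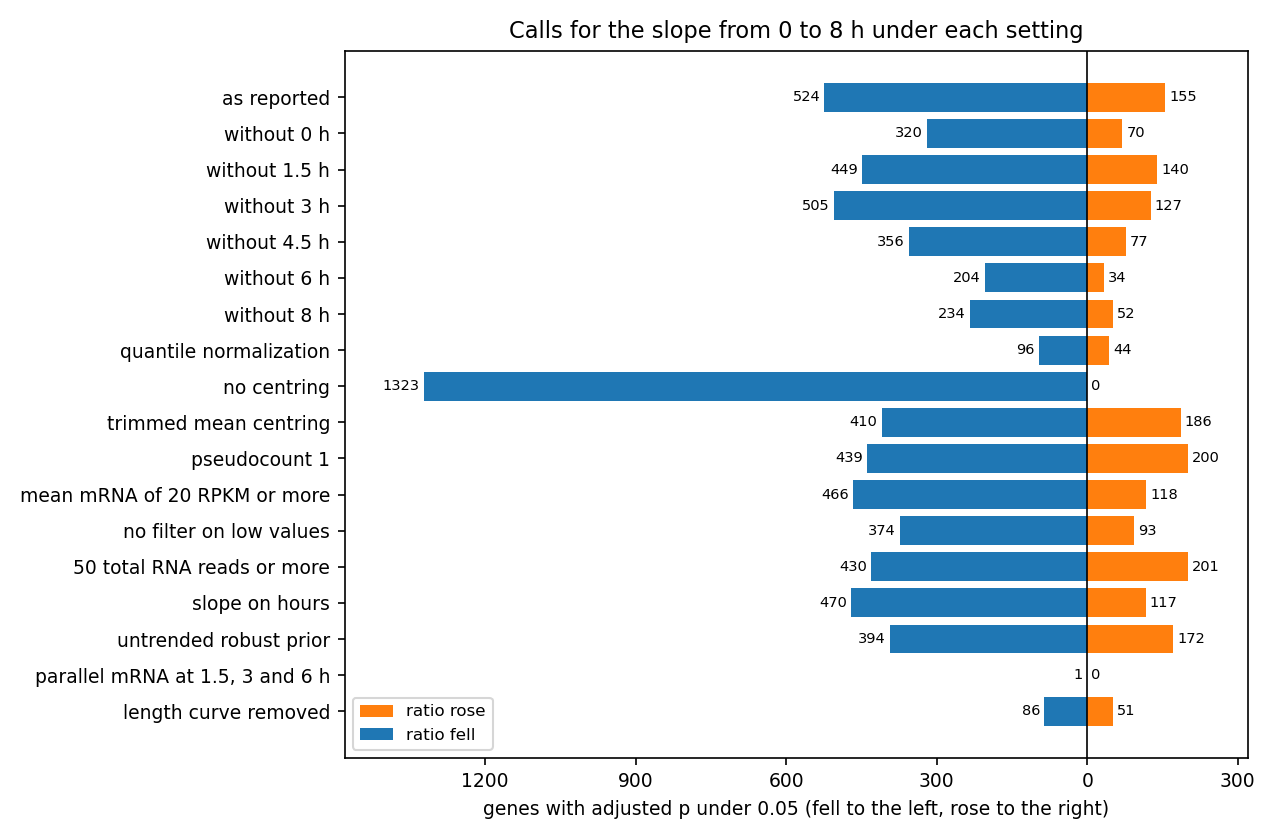
Number of genes whose mRNA to total RNA ratio fell (blue, left) or rose (orange, right) from 0 to 8 h at an adjusted p under 0.05 with limma, for the fit as reported (524 and 155) and under each other setting. The counts drop to 1 and 0 with the parallel mRNA libraries and to 86 and 51 with a length curve removed.

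Gene length moved with the ratio, and its part in the calls was not tested beyond the length curve given here. The genes were split into 5 groups of nearly equal number by length. In the longest group (median 2706 bases), the median relative ratio was 0.24, 0.25, -0.02, -0.12, -0.19, -0.22, 0.12 and -0.02 over the 8 states. In the shortest group (median 468 bases) it was -0.09, -0.22, -0.05, 0.13, 0.12, 0.09, -0.04 and 0.10. Long genes thus stood high at 0 and 1.5 h, low from 4.5 to 8 h, and high once more at 10 h, and short genes the other way round. Pearson's r across 5103 genes between relative ratio and log2 length was 0.28, 0.51, 0.01, -0.38, -0.39, -0.33, 0.22 and -0.14, where all genes of a state share 2 libraries. The genes called falling from 0 to 8 h had a median length of 2256 bases and those called rising 768, against 1215 over all genes tested. With a smooth curve on length taken from each state, also chosen after the pattern was seen, 51 genes rose (0.999%) and 86 fell (1.69%). Of the 524 falling genes 82 were among those 86, and of the 155 rising genes 37 were among those 51. The slopes were smaller but mostly kept their sign: the median went from 0.22 to 0.19 in the rising genes (153 of 153 with the same sign) and from -0.20 to -0.12 in the falling genes (502 of 505). The lower count of calls therefore does not show how much of a slope goes with length.

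**Figure D2:**
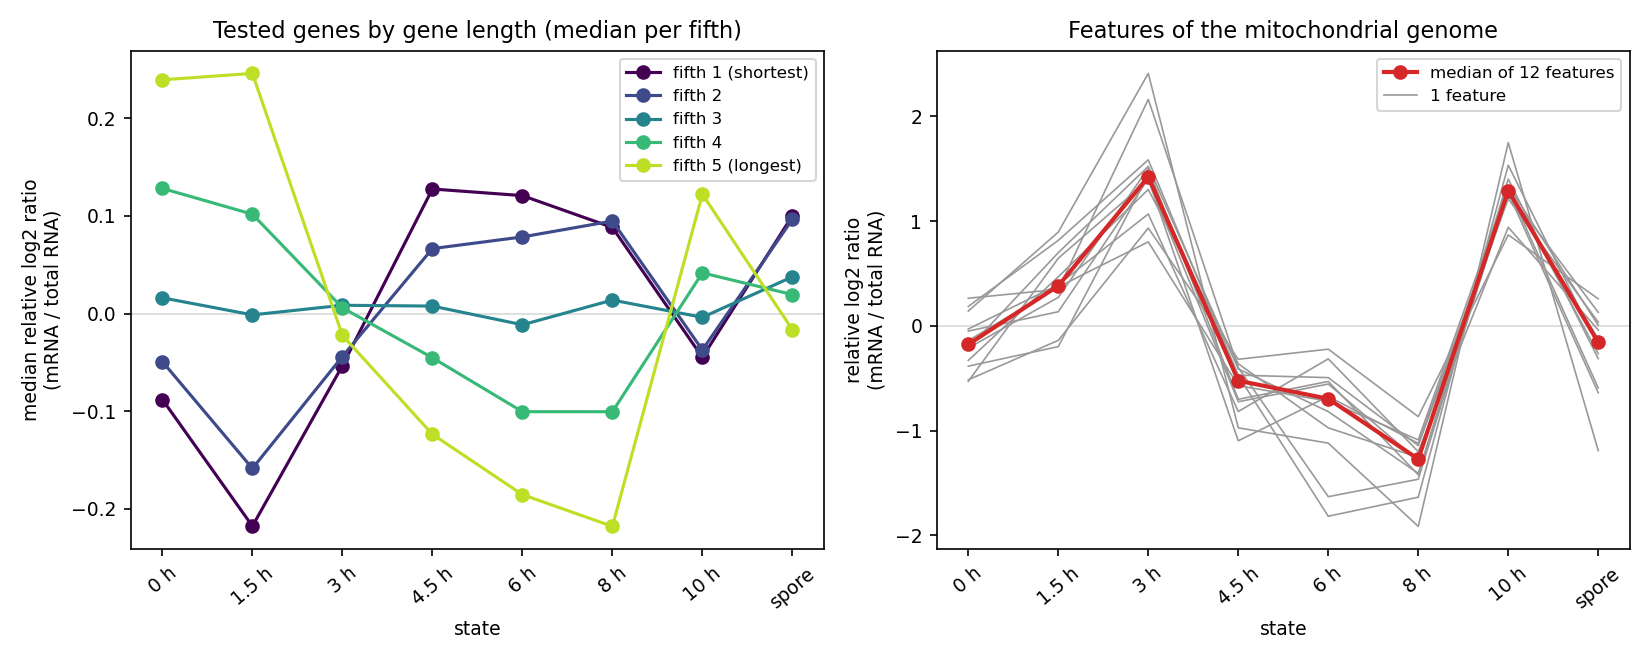
Left, median relative log2 ratio of mRNA to total RNA in each state for 5 groups of genes of nearly equal number by gene length, where the longest group goes from 0.24 at 0 h to -0.22 at 8 h. Right, the relative log2 ratio of 12 features of the mitochondrial genome (grey lines) and their median (red). The median peaks at 3 h (1.42) and 10 h (1.29), and several of the features are parts of the same genes.

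Features of the mitochondrial genome had the widest swings of the lists described here. Of 27 such features in the tables, 14 had all 16 values above 0 and 12 of these a mean mRNA value of 20 RPKM or more. Their median relative ratio was -0.18, 0.38, 1.42, -0.52, -0.70, -1.27, 1.29 and -0.16 from 0 h to spore. They were high at 3 and 10 h and low from 4.5 to 8 h, and in each state from 3 to 10 h all 12 lay on 1 side of 0. Several of them are parts of the same genes, COX1 and COB, and all are read from the same libraries of each state. They are thus not 12 separate observations. All mitochondrial features with a known length, not only these 12, took 1.28, 0.887, 0.923, 0.205, 0.140, 0.135, 1.12 and 0.274% of the recovered mRNA reads over the 8 states in order. Their shares of the recovered total RNA reads were 6.72, 3.21, 1.62, 0.393, 1.03, 1.66, 2.33 and 1.61%. At 4.5 h nearly all of this total RNA share came from the 14 features with all values above 0. In every other state most of it came from the remaining features. The dip at 4.5 h is therefore not one of the 12 features, and these shares do not account for their ratios. The recovered counts of several of these features were not whole numbers, so the shares are approximate. ATP8, a subunit of the mitochondrial ATP synthase, had relative ratios of 0.19, 0.82, 1.58, -0.48, -1.82, -1.63, 1.53 and -0.19. Its slope from 0 to 8 h was -0.54 (SE 0.14, adjusted p = 0.032 with limma) and was not called with the length curve (adjusted p = 0.16). In the parallel mRNA libraries of 6 h, the 12 features lay a median of 2.20 and 0.43 above the course library on the log2 scale. The part of these differences between libraries in the slopes of nuclear genes was not tested.

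The ratio of the ribosomal protein genes was lowest at 1.5 h and highest at 8 h. Cytosolic ribosomal proteins form the bulk of the translation machinery and are encoded by pairs of near-identical genes, whose reads may be split between copies, so single members are uncertain. For the large subunit, 79 of 81 listed genes passed the filter. Their median relative ratio was -0.32, -0.48, -0.15, 0.03, 0.14, 0.37, 0.16 and 0.22. For the small subunit, all 57 passed, with -0.22, -0.52, -0.12, 0.02, 0.15, 0.36, 0.12 and 0.23. The lists ran side by side and stood above 0 in the spore.

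From 0 to 8 h, 15 of 79 large-subunit and 12 of 57 small-subunit genes rose and 0 fell in either list (limma, adjusted p under 0.05, against 2.98% rising and 10.1% falling over all genes). With the length curve, 5 and 1 rose. Over all 8 states 134 of 136 had a positive slope, against 2473 of all 5196 genes, with a median of 0.10 against 0.00. Of the 136, 71 rose at an unadjusted p under 0.05 (52.2% against 5.43% over all genes), none of them below 0.05 after adjustment. The slope from 0 to 8 h had parts of 0.30 in mRNA and 0.13 in total RNA as medians, both per state and relative to the median gene, and footprints of the same genes had a median slope of 0.00.

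Single ribosomal protein genes show the course of the values. RPS7A, of the small subunit, had mRNA values of 909, 312, 540, 485, 1056, 1076, 1509 and 3794 RPKM from 0 h to spore, the first on the scale of the 0 h library. Its total RNA values were 18.5, 21.8, 21.6, 24.1, 34.7, 31.0, 51.9 and 157 RPM. Its relative ratio was -0.55, -0.81, -0.05, -0.23, 0.55, 0.67, 0.32 and 0.10, lowest in the first 2 states and above 0 from 6 h on. The slope from 0 to 8 h was 0.29 (SE 0.06, adjusted p = 0.015 with limma), and it was called in 4 of the 6 fits that left out 1 state and with the length curve (adjusted p = 0.041). With the parallel libraries it was 0.21 (adjusted p = 0.21).

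The first parallel library of 1.5 h differed most from the course for the ribosomal protein genes. From 1.5 to 6 h the ratio went up by a median of 0.62 in the course. With the parallel mRNA libraries, 2 at each of both times, the change ran from -0.60 to 0.61. The first parallel library of 1.5 h lay 1.02 above the course library for these 136 genes on the log2 scale and the second 0.01 above it. At 6 h the median difference from the course library was -0.29 for the first parallel library and -0.03 for the second.

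**Figure D3:**
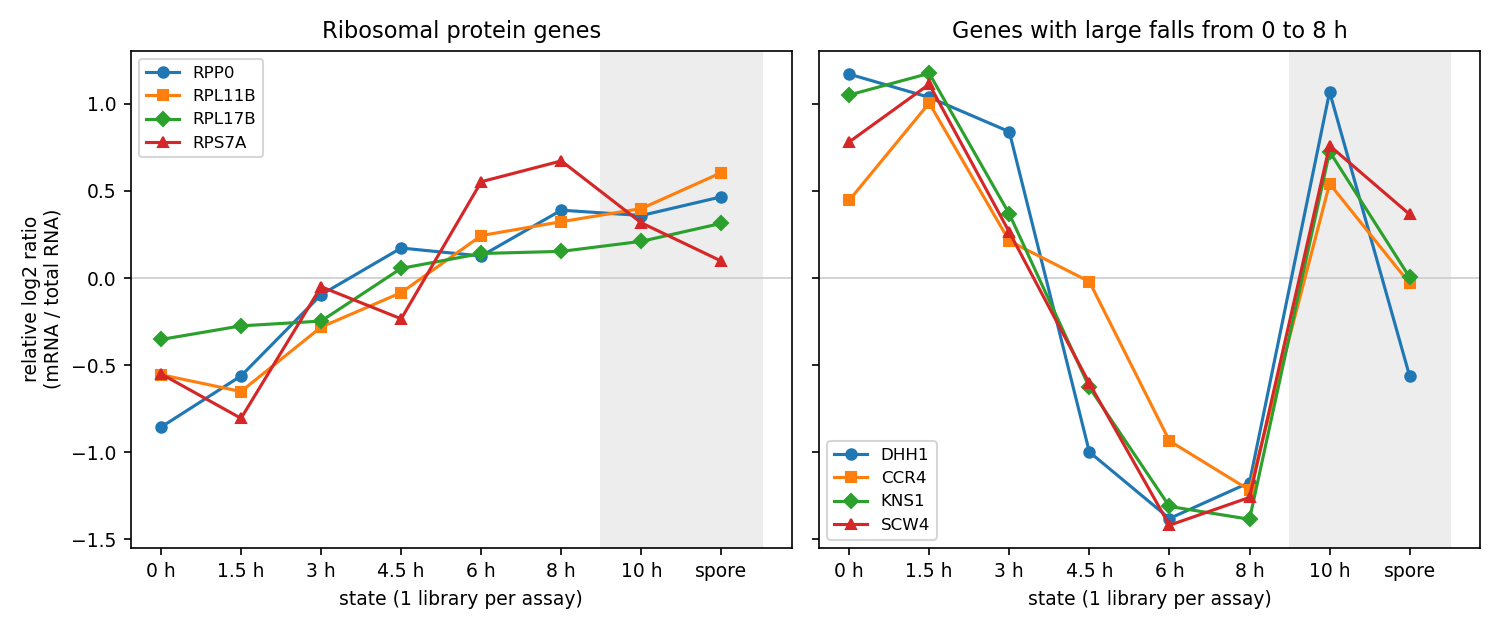
Relative log2 ratio of mRNA to total RNA in each of the 8 states (1 library per assay and state) for 4 ribosomal protein genes and for 4 genes with large falls from 0 to 8 h; the grey area marks the 2 states outside that window. The genes with large falls are between 0.54 and 1.07 at 10 h, and RPL11B and RPP0 are highest in the spore (0.61 and 0.47).

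Genes of mRNA turnover were among those whose ratio fell from 0 to 8 h. The list of cytoplasmic deadenylation, decapping and decay had 58 genes, of which 54 were matched by symbol and 52 passed the filter. Of these 13 fell and 0 rose, 25% against 10.1% over all genes. With the length curve 6 fell and 1, SKI7, rose, 11.5% fallen against 1.69%. Its median slope from 0 to 8 h was -0.06 per state, against -0.01 over all genes tested. The 13 were the deadenylase subunits CCR4, POP2, CDC39 and CAF130 and the partner of the second deadenylase PAN3, the decapping factors DHH1 and EDC1, the 5′ to 3′ exonuclease XRN1, the Ski complex subunit SKI3, and the Puf family RNA-binding proteins MPT5, JSN1, PUF3 and PUF4. Those called with the length curve were MPT5, DHH1, PUF3, EDC1, CCR4 and POP2.

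DHH1, a helicase that promotes decapping, had the largest fall of the named genes. Its mRNA values were 1274, 532, 492, 134, 74.9, 64.6, 385 and 126 RPKM from 0 h to spore. Its total RNA values were 289, 380, 388, 416, 345, 246, 288 and 301 RPM. The enriched mRNA was thus lower from 4.5 to 8 h than up to 3 h and at 10 h, and was low again in the spore, while total RNA stayed between 246 and 416. The slope of its ratio from 0 to 8 h was -0.59 per state (SE 0.08, adjusted p = 0.0024 with limma), called without each of the 6 states in turn and with the length curve (adjusted p = 0.023). Its footprints had a slope of -0.19 over the same states relative to the median gene. The parallel mRNA libraries of 6 h gave 327 and 226 RPKM where the course library gave 74.9, and with parallel libraries the slope was -0.37 (adjusted p = 0.15). Over all 8 states its slope was -0.22 (adjusted p = 0.55).

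CCR4 had mRNA values of 291, 260, 155, 85.2, 32.2, 23.5, 109 and 102 RPKM and total RNA values of 156, 271, 271, 191, 155, 131, 169 and 242 RPM. Its relative ratio was highest at 1.5 h (1.01) and lowest at 8 h (-1.22). The slope from 0 to 8 h was -0.41 (SE 0.07, adjusted p = 0.0039 with limma). MPT5, which brings the Ccr4-Not complex to its targets, had the same slope of -0.41 (adjusted p = 0.0018), with 1.03 at 1.5 h and -1.04 at 8 h.

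Proteins that bind and process the tail gave a mixed list. Of 43 genes of polyadenylation, poly(A) binding and nuclear RNA processing, 42 were matched and 41 passed the filter, 4 fell and 1 rose, 9.76% fallen against 10.1% over all genes. PAB1 fell by 0.25 per state (SE 0.06, adjusted p = 0.017 with limma), as did NPL3, a shuttling mRNA-binding protein (adjusted p = 0.0080). NAB3, of the nuclear termination complex, had -0.23 and the THO subunit THO2 -0.17. THP2, also of THO, rose by 0.23 (adjusted p = 0.029). With the length curve NPL3 was called (adjusted p = 0.037) and PAB1, NAB3, THO2 and THP2 were not (adjusted p from 0.095 to 0.76). PAP1 had a slope of 0.02.

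Across the other genes, the 12 largest called falls with a standard symbol had slopes from -0.45 to -0.59 per state. After DHH1 came KNS1, a LAMMER kinase, with relative ratios of 1.05, 1.18, 0.37, -0.63, -1.31, -1.39, 0.73 and 0.00 (adjusted p = 5.9e-04 with limma). The others were SNA2, MET13 (a methylenetetrahydrofolate reductase), the mitochondrial ATP8, HCM1 (a forkhead transcription factor), SCW4 (a cell wall protein), AGP2 (a plasma membrane regulator of transport), VHS1 (a kinase), YPS1 (a cell surface protease), HEM1 (the first enzyme of heme synthesis) and UTH1. Each of these 12 had a higher ratio at 10 h than at 8 h. SCW4 was the 1 gene that stayed called with the parallel libraries (slope -0.38, adjusted p = 0.020), and it was also called with the length curve (adjusted p = 0.013).

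The largest called rises described here had slopes from 0.30 to 0.45 and rested on few reads. TCA17, a subunit of a trafficking complex, had relative ratios of -1.14, -0.77, -0.05, 0.01, 0.81, 1.03, 0.11 and 0.00 (slope 0.45, adjusted p = 0.0017 with limma), but as few as 4 total RNA reads. DFP2, SPR2, BIO2 (biotin synthase), DYN2 (the dynein light chain), EMA17, FMC1, RPC10 (a subunit shared by the RNA polymerases), TEM1 (the GTPase of mitotic exit), FLX1 and XPT1 had between 3 and 25 reads in their lowest state. Of the 155 rising genes, 132 had fewer than 50 total RNA reads in their lowest state, against 69 of the 524 falling genes and 2195 of all 5196. With genes held to a mean of 50 total RNA reads or more, 201 genes rose and 430 fell.

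The metabolic lists are read against 10.1% of all genes falling and 2.98% rising from 0 to 8 h. In the list of vacuolar proteases and autophagy, 7 of 40 fell (17.5%) and 0 rose, led by PRB1, the vacuolar proteinase B (slope -0.38, adjusted p = 0.0027 with limma), and ATG15, a vacuolar lipase (-0.33, adjusted p = 0.0038). Both were also called with the length curve. In the TCA cycle 3 of 17 fell (17.6%), SDH1, SDH4 and CIT1, with slopes of -0.26, -0.21 and -0.14, and SDH4 was also called with the length curve. In glycolysis and fermentation PFK2, GLK1 and PYK2 fell and GPM1 rose, of 21 genes (14.3% and 4.76%). GLK1 overlaps another listed gene, and the strand counted is not given. Of 95 ribosome biogenesis genes, 6 fell (6.32%, below the share over all genes), among them UTP18 (also with the length curve) and DBP2. Of 67 mitochondrial ribosomal protein genes 4 rose (5.97%), MRPL28, MRPL35, RSM26 and MRP1, none of them called with the length curve. None of 39 nuclear genes of the respiratory chain and 0 of 11 histone genes was called by limma in this window.

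**Figure D4:**
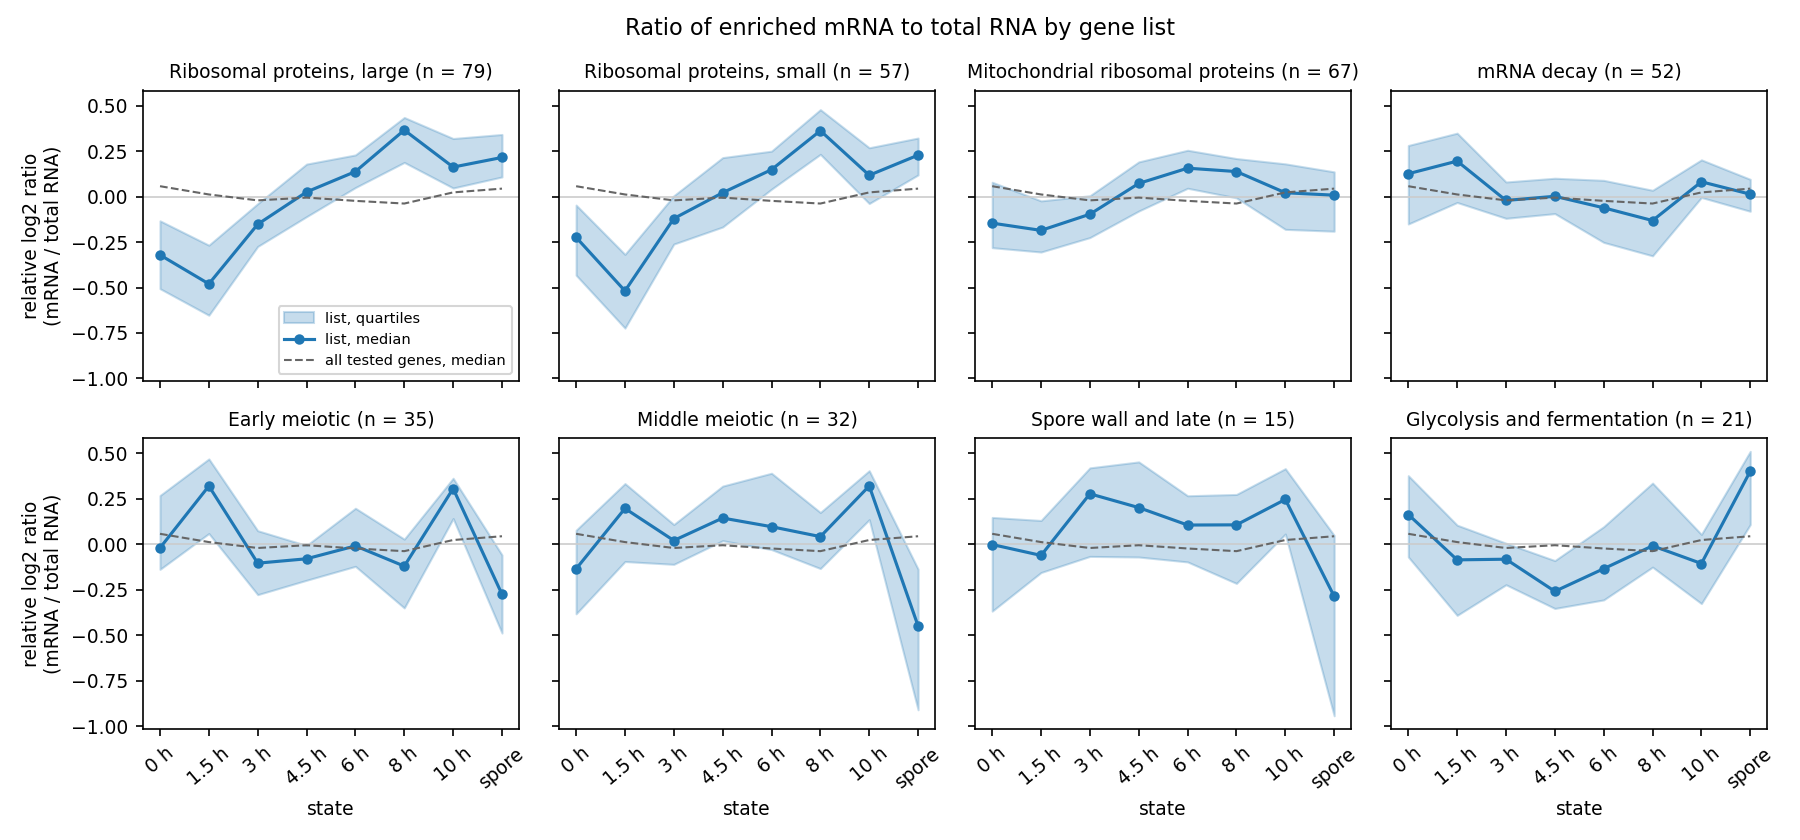
Median (line) and quartiles (band) of the relative log2 ratio of mRNA to total RNA in each state for 8 gene lists, beside the median of all 5196 genes tested (dashed). The 2 lists of cytosolic ribosomal proteins go from -0.48 and -0.52 at 1.5 h to 0.37 and 0.36 at 8 h, and the 3 meiotic lists lie between -0.45 and -0.28 in the spore.

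The meiotic lists had few calls from 0 to 8 h and their lowest median ratio in the spore, -0.28, -0.45 and -0.29 for early, middle and late genes. Of 44 early and recombination, 45 middle and 28 spore wall and late genes listed, 40, 44 and 25 were matched by symbol, and 35, 32 and 15 of these passed the filter, which takes no gene below 20 RPKM in any state. From 0 to 8 h, 5 of 35 early genes fell, 14.3% against 10.1% over all genes, and 0 rose. They were MCK1, a kinase that acts on IME1 (slope -0.31, adjusted p = 0.0043 with limma), SPO22, RIM15, IME1 and UME6. With the length curve MCK1 was called and the other 4 were not, RIM15 with a slope of -0.03 (adjusted p = 0.71) and UME6 with -0.07 (adjusted p = 0.40). IME1 had relative ratios of 0.25, 0.42, 0.07, 0.00, -0.12 and -0.71 from 0 to 8 h, and its total RNA went over the same states from 1936.5 to 276 RPM. Of the middle genes, SSP2 and SPR3 rose and SPO1 fell, and of the late genes CDA2 and RRT8 rose and GSC2 fell, which is 6.25% and 13.3% rising against 2.98% over all genes. Of these 6, SSP2 was also called with the length curve. The rising genes CDA2, SSP2, SPR3 and RRT8 had as few as 6, 11, 17 and 47 total RNA reads in their lowest state. Middle genes had median slopes from 0 to 8 h of 1.46 per state in mRNA and 1.38 in total RNA relative to the median gene, and of 0.04 in the ratio.

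From 10 h to the spore the ratio was lower for most genes of the meiotic lists, in a comparison of 1 library per assay on each side with no replicate and no test. The ratio was lower in the spore in 33 of 35 early genes (median difference -0.49), in 29 of 32 middle genes (-0.73) and in 12 of 15 late genes (-0.44), against 2470 of 5196 genes in all (0.03). A ratio 2-fold lower or more was seen in 5, 11 and 6 of them and in 108 of all genes (2.08%). With the length curve the medians were -0.55, -0.74 and -0.44. The 10 h values were themselves high: at 8 h, 10 h and in the spore the median relative ratio was -0.12, 0.31 and -0.28 for early genes, 0.04, 0.32 and -0.45 for middle genes and 0.11, 0.25 and -0.29 for late genes, so the early genes stood nearer to their 8 h than to their 10 h level. The RNA of these genes was itself lower in the spore. In the middle list mRNA differed by a median of -3.79, total RNA by -2.93 and footprints by -3.19, each on the log2 scale relative to the median gene, so the difference was larger in enriched mRNA than in total RNA.

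DIT1, an enzyme of the dityrosine layer of the spore wall, had the largest difference of the lists. Its mRNA values were 128, 50.5, 47.5, 58.9, 1067, 14832, 7769 and 194 RPKM from 0 h to spore. Its total RNA values were 14.1, 15.1, 12.4, 17.7, 373, 4627, 1527 and 283 RPM. Between 10 h and the spore its ratio differed by -2.85 (counting SE 0.07, which covers counting error only), with 4375 and 716 total RNA reads behind it. Its footprints went from 6507 to 154 RPKM. The chitin deacetylase genes CDA2 and CDA1, which act in the chitosan layer of the spore wall, differed by -1.90 and -1.55. SPS18, SPR28 (a sporulation septin) and SSP2 led the middle list with -1.56, -1.47 and -1.40, and NDT80 differed by -1.34. In the early list, MEK1, a kinase of the recombination checkpoint, HOP2 and GMC2 differed by -1.67, -1.35 and -1.30.

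The late list was not uniform. AQY1, the spore aquaporin, had 4320 RPKM of mRNA at 10 h and 6549 in the spore and its ratio differed by 0.04. UIP4 differed by 0.31 and the chitin synthase gene CHS3 by -0.06. These genes held or gained RNA or, for CHS3, lost it in both assays alike (mRNA 381 to 172 RPKM, total RNA 619 to 301 RPM).

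**Figure D5:**
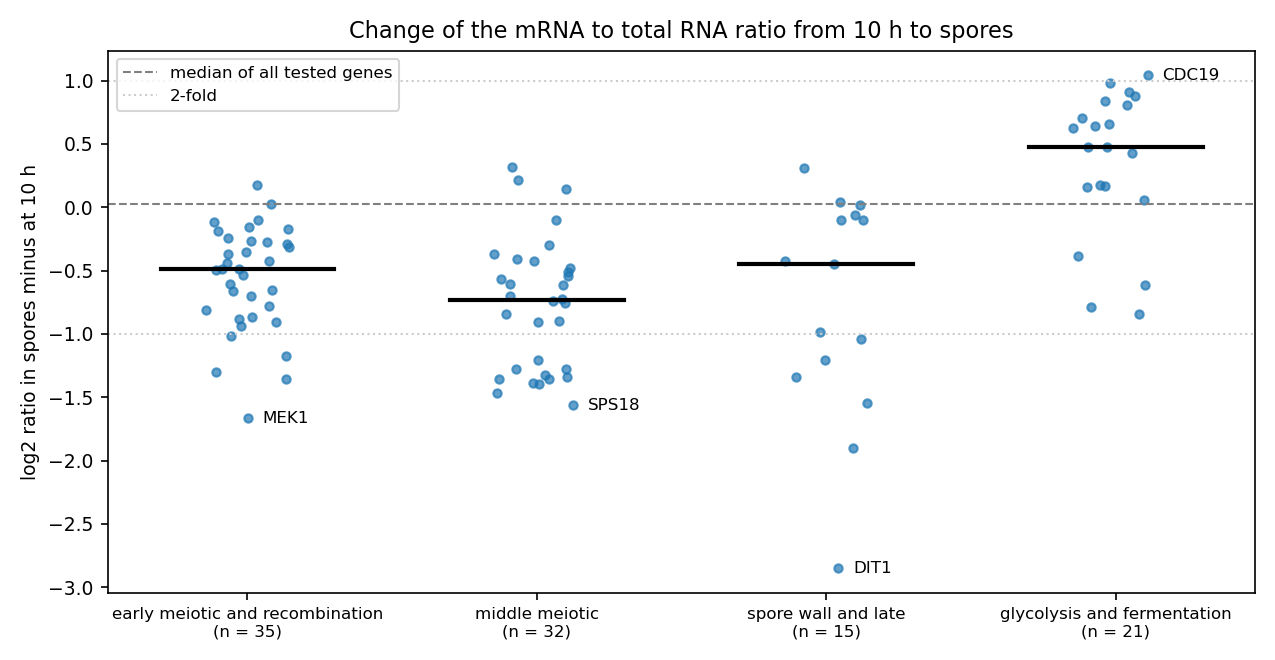
Difference of the log2 ratio of mRNA to total RNA from 10 h to the spore for each gene (points) of 4 lists, with the median of each list (bar), the median of all 5196 genes (dashed) and 2-fold lines (dotted); 1 library per assay and state. DIT1 is lowest (-2.85) and CDC19 highest (1.04).

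Genes of glycolysis and fermentation went the other way. In the spore 17 of 21 had a higher ratio than at 10 h, with a median difference of 0.48. CDC19, the pyruvate kinase of fermentative growth, differed by 1.04, the only 2-fold higher ratio among the 21, against 79 of all 5196 genes (1.52%). Its mRNA went from 3203 to 17149 RPKM and its total RNA from 2311 to 6201 RPM. FBA1 (aldolase), GPM1 (phosphoglycerate mutase) and TDH3 (glyceraldehyde-3-phosphate dehydrogenase) differed by 0.98, 0.91 and 0.88. The 4 genes with a lower ratio were PYK2, PDC5, GLK1 and HXK1, and of these PYK2 and GLK1 lost RNA in both assays. Over the list mRNA was higher by a median of 1.67, total RNA by 1.14 and footprints by 0.86. Ribosome biogenesis genes were higher by a median of 0.99 in total RNA, and their ratio differed by a median of 0.04.

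Outside the lists, the largest differences between 10 h and the spore among genes with 50 or more total RNA reads in both states were again mixed in kind. After DIT1, the lowest were GTO3, a glutathione transferase (-2.47), and PIR5, a cell wall protein gene (-1.99), followed by features of the mitochondrial genome and AZF1, a zinc finger transcription factor (-1.85). For AZF1 total RNA was 417 and 405 RPM while mRNA went from 195 to 51.0 RPKM. DHH1 differed by -1.63, with total RNA of 288 and 301. Among the higher ratios, ALE2 (1.66), SPG3 (1.38), CLN3, the G1 cyclin that acts first (1.33), and STP4 (1.29) led. CLN3 went from 42.2 to 180 RPKM in mRNA and from 89.7 to 157 RPM in total RNA. The cell wall genes FLO11, SED1, CCW14 and SCW10 were also among the 12 highest, with differences from 1.11 to 1.19.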

How the data were processed

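Values are as the authors deposited them. The mRNA, footprint and parallel mRNA values are RPKM per the file headers. The deposited total RNA columns are also headed RPKM, but they behave as reads multiplied by gene length instead of divided by it, so they were used as a score within each gene. CASAVA, bcl2fastq 2.17 and Bowtie2 are named per the submitters' processing notes. No source at hand gives the counter, genome build, annotation or strand.

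Reads were recovered from the steps between low values with gene length minus 60 bases. Of values up to 30 reads, 71.8 to 90.5% per library came out whole within 0.02. Depths are given above, and counting errors cover counting only. Total RNA is given as RPM, recovered reads scaled to the sum of each library. The log2 ratio was centred on each state's median gene and fitted against the order of the states with limma 3.58.1 in R 4.3.3 (variance trend, no pseudocount), with p-values adjusted over all genes tested. Python 3.11.15, numpy 2.4.6, pandas 2.3.3 and matplotlib 3.10.9 were also used, and the scripts were tested on simulated data.

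The labels name no separate cultures, so p-values measure scatter about a line, which may be technical. The 2 parallel 3 h columns were identical and counted as 1 library. In the file of parallel libraries, 443 rows stood in another order and were matched by position. Of 59 per-sample columns 30 were not used. Names came from the files and from the R64 reference table, which held 5994 of 6679 IDs, and 4764 members had a standard symbol. The members and lists were chosen with earlier results of these data known. The rule for named genes took the fixed genes and the largest called slopes overall and per list. With no call over 8 states it was applied to the 0 to 8 h fit, and the genes with 7 ordered steps, the smallest p and the largest spore differences were added after their values were seen. Some genes are not reported here.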

Additional observations from a re-analysis of the deposited data

How the results depend on the processing

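No paired analysis was possible because each state has 1 library per assay. Over the 8 states, 1 gene rose with the parallel mRNA libraries, 7 fell without centring, and leaving out each state in turn gave 0 to 1 rising. Without centring the slopes of PAP1, RPL3 and HTB1 reversed to -0.136, -0.121 and -0.0988, where the 0 h library's own scale enters every slope. From 0 to 8 h, leaving out each state gave 34 to 140 rising and 204 to 505 falling genes. Leaving out 0, 4.5, 6 or 8 h each moved a count by over 1.5 times, with 70 and 320, 77 and 356, 34 and 204, and 52 and 234 rising and falling genes. Quantile normalization gave 44 and 96, no centring 0 and 1323, no filter on low values 93 rising, the parallel mRNA libraries 0 and 1, and a length curve 51 and 86. The parallel libraries, the 0 to 8 h window and the length curve were chosen after seeing the data. The cause of these differences was not tested. Total RNA depth limits genes under 50 reads, and spore differences have no replicate.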

Other observations

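Single libraries of 8 and 10 h were set side by side with no test. Among genes with 50 or more total RNA reads in both states, the mitochondrial features ATP8 and AI4 (3.17 and 2.82) and SNA2 (2.78) were highest. GPM1 (-1.22) and the hydrophilin genes GRE1 and SIP18, induced by drying (-1.14 and -1.13), were among the lowest.

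From 0 h to 8 h, LEU1, an enzyme of leucine synthesis, again with no test, had a ratio higher by 1.49, the ribosomal stalk gene RPP1A by 1.44, ERG2, of ergosterol synthesis, by 1.35, the cell wall gene CCW12 by 1.30 and RNR2, a subunit of ribonucleotide reductase, by 1.15. MET13 and AGP2 were lower, with differences of -2.48 and -2.47.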
